A study of Homo sapiens with 6 samples.

Results

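A list of 40 genes of ribosome biogenesis and RNA polymerase I was examined in HCC2814 cells, a human lung squamous cell carcinoma (LUSC) line. They are a named list of nucleolar processing factors, small nucleolar ribonucleoprotein (snoRNP) proteins and polymerase subunits, matched by gene symbol, and all 40 were found among the 17448 genes in the expression table. Bulk RNA sequencing of polyadenylated RNA covered 3 WT samples, which carried a non-targeting guide RNA, and 3 MLST8-KO samples, which carried a guide RNA against *MLST8*. Both groups were lentiCRISPR v2-transduced, antibiotic-selected populations of 1 cell line, and no other treatment, time or dose was labelled. MLST8 is a shared subunit of mTOR complexes 1 and 2, and the study used its loss to ask what mTORC2 controls in LUSC cells. By its blots of these cells, mTOR lost its association with RICTOR, of mTORC2, but not with RAPTOR, of mTORC1. Phosphorylation of AKT at S473, an mTORC2 site, fell, and that of the mTORC1 substrate S6K1 did not change. Per the series' design text the replicates came from independent experiments. The study also blotted 3 numbered control and 3 numbered *MLST8* guide lines, and the labels do not say whether a replicate number stands for a guide RNA, a culture or a day.

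Libraries held 14381673 to 15744154 estimated counts, and a count of 0 in the shallowest allows up to 0.209 CPM (counts scaled to the size of the library), a limit that covers counting error only. *MLST8* (Entrez 64223) had 874, 827 and 842 counts in WT samples 1, 2 and 3 and 396, 629 and 401 in MLST8-KO samples 1, 2 and 3. The groups did not overlap, and *MLST8* fell by 0.96 ± 0.15 on the log2 scale (SE; edgeR adjusted p = 0.00339). MLST8-KO 1 stood apart in liver genes: 12 liver markers summed to 321.5 TPM (counts scaled by gene length and library size) there and to between 0.96 and 7.76 TPM in the other 5 samples, with the tested markers *FGB*, *AFP* and *FGA* at log2 differences of 4.55, 4.49 and 4.49, and of 0.16, -0.12 and -0.30 without that sample. All 11 squamous and epithelial markers were present, and their summed level was 12650 to 19380 TPM in WT and 24170 to 26970 TPM in MLST8-KO samples. Of these markers, 7 rose, led by *SOX2* (1.55), *KRT14* (0.87) and *KRT17* (0.85), and *KRT18* (-0.86) and *KRT8* (-0.47) fell. Immune markers summed to at most 0.87 TPM over the 4 of 7 in the table, with *PTPRC* and *MS4A1* at 0 or 1 count in every sample, and 9 stromal and endothelial markers summed to 11.1 to 14.2 TPM. On the first principal component, which held 67.5% of the variance, WT 1 (-8.32) lay nearest to the MLST8-KO samples (20.9 to 30.6), and WT 2 and WT 3 were at -26.0 and -44.5. The part of the liver markers, the epithelial markers and the position of WT 1 in the results below was not tested.

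Ribosomes are built in the nucleolus. RNA polymerase I transcribes the ribosomal DNA into 1 long precursor, snoRNPs guide chemical changes to its bases and sugars, and a large set of assembly factors folds and cuts it into the RNAs of the small and large subunits while ribosomal proteins are added. The process takes a large share of a growing cell's transcription, mTOR signalling is a known regulator of it, and MYC is known to activate many of its genes.

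Of the 40 genes, 20 fell and 3 rose in MLST8-KO cells by edgeR's quasi-likelihood test at an adjusted p under 0.05. Among all 12951 genes tested, 15.7% fell and 16.3% rose. All 40 passed the filter on low counts, with 189 to 16915 counts per sample. The genes that rose were *POLR1A*, *NOP56* and *BOP1*, which encode a polymerase subunit, a snoRNP scaffold and a large-subunit factor. The 20 that fell had log2 fold changes from -0.64 to -0.26, and the 17 that did not pass had values from -0.28 to 0.13, of which 14 were negative. The median log2 fold change was -0.26 over the 40 genes and 0.0045 over all genes tested. Every MLST8-KO sample lay below every WT sample for 27 of the 40, where 24.2% of all genes showed this pattern, and above for 4, where 24.8% of all genes did. The median coefficient of variation of the 40 genes was 6.82% among the WT and 5.93% among the MLST8-KO samples, and that of all genes was 10.2% and 8.01%. These sets were not matched for count level, so the difference in spread cannot be assigned to the role of the 40 genes. In these bulk samples, fewer cells of a type and less RNA per cell cannot be told apart.

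**Figure D1:**
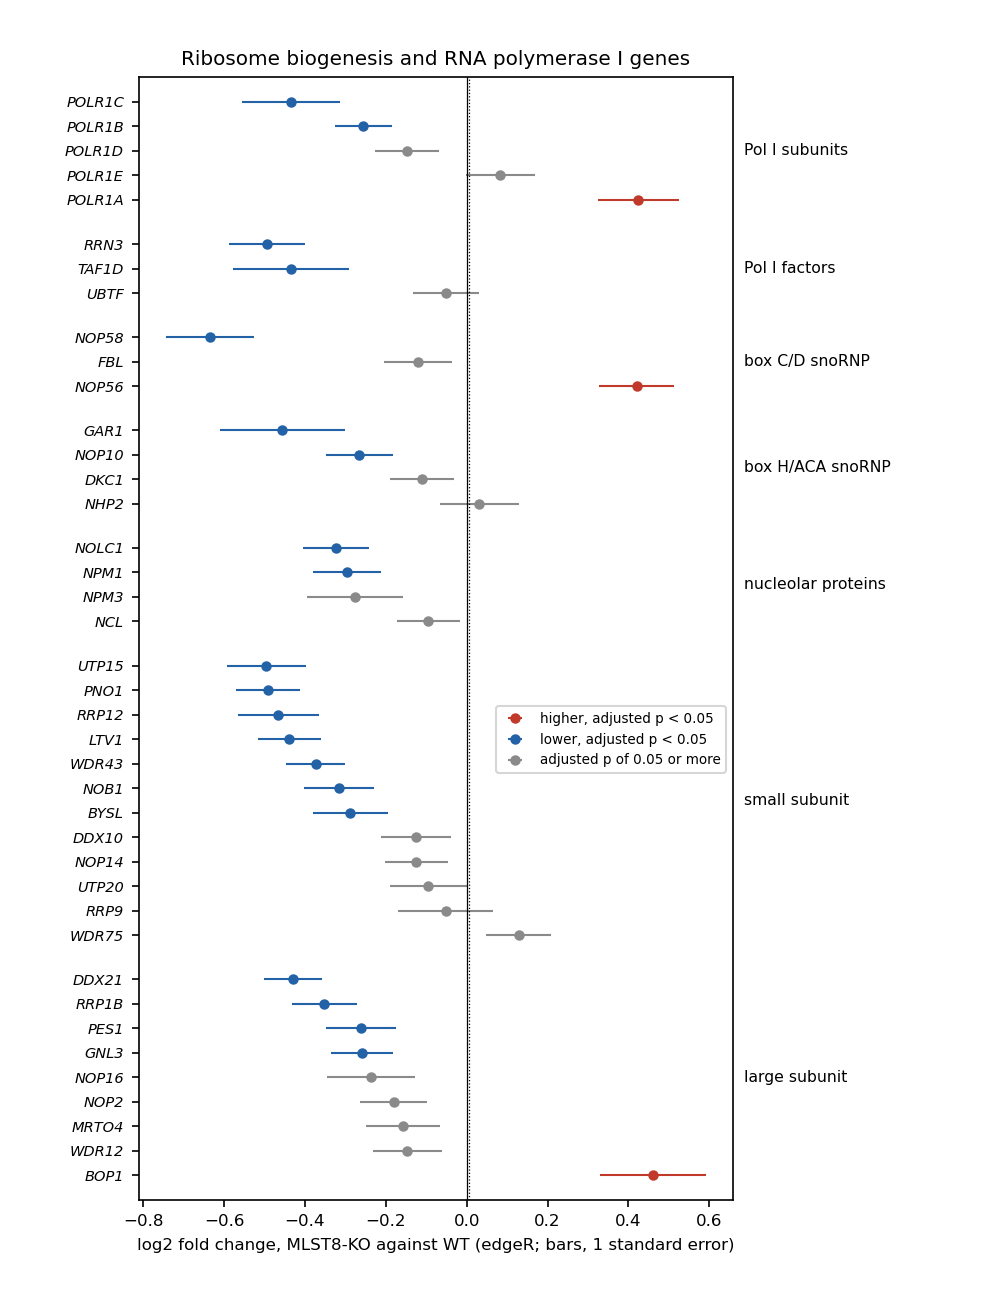
The plot shows the log2 fold change of each of the 40 genes in MLST8-KO against WT cells, with bars of 1 standard error, grouped by role. The dotted line is the median of all genes tested; 20 genes lie to the left with an adjusted p under 0.05 and 3 (*POLR1A*, *NOP56*, *BOP1*) to the right.

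The 23 called genes kept their direction under all 14 alternatives, but the number that fell differed between settings. With DESeq2 19 fell and 3 rose, where 15.1% of all genes fell and 13.9% rose. With upper quartile scaling 12 fell and 3 rose, where 12% of all genes fell and 19.7% rose. The limma fits changed the test, the filter and the measure together. With limma on log2(TPM + 1) 7 fell and 3 rose, where 4.71% of all genes fell and 11.8% rose. With limma on log2(TPM + 0.1) 9 fell and 3 rose, against 4.9% and 12.3%. The share of all calls that were higher was 51.0% with TMM scaling, 62.0% with upper quartile scaling and 71.6% in either limma fit. The median of all genes then stood at 0.059, 0.048 and 0.11, and the median of the 40 genes at -0.20, -0.15 and -0.15, in the same order. Leaving out WT 2, MLST8-KO 1 or MLST8-KO 2 gave 9, 8 and 9 that fell, where 7.97%, 6.5% and 8.35% of all genes fell, and 2 that rose in each, where 7.41%, 7.49% and 8.69% of all genes rose. Without MLST8-KO 1, the sample with liver markers, the median of the 40 genes was -0.24. On the TPM scale, which corrects for length, the 40 genes summed to 5466, 5757 and 5603 in WT and 5280, 5072 and 5289 in MLST8-KO samples. *NPM1* weighs heavily in this sum, with a mean of 1556 of 5609 TPM in WT and 1363 of 5214 TPM in MLST8-KO samples.

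**Figure D2:**
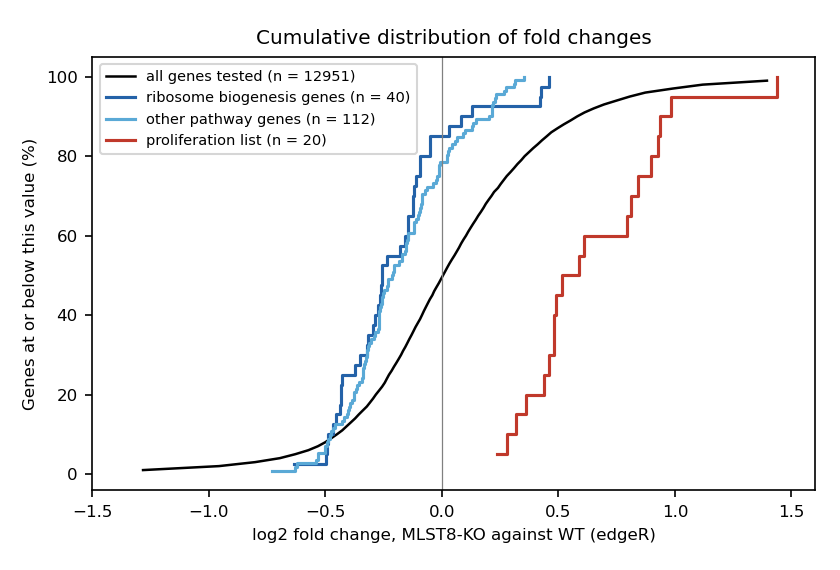
Cumulative share of genes (y axis) against log2 fold change in MLST8-KO over WT cells (x axis) for the 40 genes, the 112 other pathway genes, 20 proliferation genes and all 12951 genes tested. At their medians, the 40 genes (-0.26) and the other pathway genes (-0.21) lie to the left of all genes (0.0045) and the proliferation genes (0.55) to the right.

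Because MYC binds the E-box CACGTG, promoter sequence was read for the genes that moved. RefSeq windows (GRCh38.p14, from 250 bases before to 50 after a start) matched 34 of the 40 genes, and CACGTG, a palindrome that reads alike on both strands, was present in a window of 15 of them (44.1%). It was present in 28.1% of 96 other pathway genes, 12.6% of 10561 tested genes with a window and 7.26% of 35116 windows of this length. It was found in 9 of 16 genes that fell, 6 of 16 that did not pass and 0 of 2 that rose. Across all tested genes, 16.6% of those with the motif fell and 15.5% of those without it, while 18.3% and 16.3% rose. The sites of the 9 genes that fell are shown with 12 bases on each side, the motif in capitals, 5′ to 3′ on the strand of the gene. *NOP10* has a pair, and that of *DDX21* and both of *NOP10* lie before the start, the others after it:
NOP10, first site, chr15:34343130-34343159, minus strand: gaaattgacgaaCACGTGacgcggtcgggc
NOP10, second site, chr15:34343289-34343318, minus strand: gtagggacactcCACGTGttttagcctgca
DDX21, chr10:68956604-68956633, plus strand: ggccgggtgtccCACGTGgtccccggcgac
GAR1, chr4:109815781-109815810, plus strand: gggccagaggggCACGTGgcgccggtgagt
WDR43, chr2:28894658-28894687, plus strand: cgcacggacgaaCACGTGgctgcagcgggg
BYSL, chr6:41921515-41921544, plus strand: ttcttcagtcccCACGTGcgatccttcccg
PNO1, chr2:68157885-68157914, plus strand: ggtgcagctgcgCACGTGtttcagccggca
LTV1, chr6:143843354-143843383, plus strand: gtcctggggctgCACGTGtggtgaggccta
PES1, chr22:30591880-30591909, minus strand: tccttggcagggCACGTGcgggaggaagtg
GNL3, chr3:52686026-52686055, plus strand: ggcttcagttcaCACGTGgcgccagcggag

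Whole upstream windows, each the 250 bases before a start, are shown for *DDX21*, which fell, and *NOP56*, which rose, as an example of each direction. RefSeq gives *DDX21* more than 1 start. The window shown (chr10:68956397-68956646, plus strand) was picked because it holds an E-box, in capitals, 31 bases before its start, and is 70.0% G and C, while the window of the start further upstream (chr10:68955920-68956169, plus strand, 53.2% G and C) has 0. The bases before the start also have 0 in the windows of *PNO1*, *LTV1* and *GNL3*, which fell and whose sites lie after it, and the pair of windows is an illustration and not a comparison of genes that fell with genes that rose. The *NOP56* window (chr20:2652382-2652631, plus strand) is 78.0% G and C, and the letters CACGTG are not in it:
DDX21 promoter: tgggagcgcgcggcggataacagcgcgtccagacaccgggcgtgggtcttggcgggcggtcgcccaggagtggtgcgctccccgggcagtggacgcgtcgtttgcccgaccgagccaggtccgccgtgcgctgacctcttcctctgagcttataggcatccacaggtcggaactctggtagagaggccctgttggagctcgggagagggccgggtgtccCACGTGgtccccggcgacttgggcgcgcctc
NOP56 promoter: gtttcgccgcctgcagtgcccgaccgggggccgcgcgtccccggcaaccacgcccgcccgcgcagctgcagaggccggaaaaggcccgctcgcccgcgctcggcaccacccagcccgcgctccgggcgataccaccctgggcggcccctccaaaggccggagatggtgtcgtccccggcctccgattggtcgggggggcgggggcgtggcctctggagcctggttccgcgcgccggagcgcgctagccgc

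Among other motifs searched on both strands, without regard to overlap between motifs, CCGGAAG of the ETS family was in 11 of 34 genes (32.4%), 49.0% of the other pathway genes and 22.3% of tested genes. It was found in 8 of 16 genes that fell, 3 of 16 that did not pass and 0 of 2 that rose. Of all tested genes with CCGGAAG, 21.8% fell and 10.2% rose, and of those without it 13.9% fell and 18.3% rose. The letters TCTCGCG were in 6 of 34 genes (17.6%; 4 of 16 that fell and 2 of 16 that did not pass), 12.5% of the other pathway genes and 7.74% of tested genes, with 18.6% and 15.4% falling with and without them. Of tested genes with and without TCTCGCG, 14.6% and 16.7% rose. These matches are descriptions of letters in a window.

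Values per sample are given next in CPM, for WT samples 1, 2 and 3 and then MLST8-KO samples 1, 2 and 3, and every log2 fold change carries its SE. The counts by role cover few genes each and stand against 15.7% of all genes that fell and 16.3% that rose. The 5 subunits of RNA polymerase I did not move as one: 1 rose, 2 fell and 2 did not pass. *POLR1A* (Entrez 25885, chr2:86020216-86106155), the largest, catalytic subunit, measured 99.8, 92.1 and 78.4 CPM in WT and 119.7, 129.1 and 113.7 in MLST8-KO samples. All MLST8-KO samples lay above all WT samples, with WT 3 lowest, and *POLR1A* rose by 0.42 ± 0.10 on the log2 scale (edgeR adjusted p = 0.0120). *POLR1B* (Entrez 84172, chr2:112541915-112577150), the other large subunit of the catalytic core, measured 141.1, 137.6 and 139.9 CPM and then 116.1, 118.2 and 116.3. The groups were tight and apart, and *POLR1B* fell by 0.26 ± 0.070 (edgeR adjusted p = 0.0211), though it passed in 2 of 6 fits that left out a sample. *POLR1C*, a subunit shared with RNA polymerase III, measured 29.3, 28.9 and 33.8 CPM and then 22.4, 19.6 and 26.1. Its samples were also apart, with MLST8-KO 2 lowest, and it fell by 0.43 ± 0.12 (edgeR adjusted p = 0.0229). *POLR1D*, also shared with RNA polymerase III, and *POLR1E*, a subunit particular to RNA polymerase I, had log2 fold changes of -0.15 and 0.083 and did not pass.

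Of 3 factors that bring the polymerase to ribosomal DNA, 2 fell. *RRN3* (Entrez 54700, chr16:15060022-15094317), the initiation factor that makes the polymerase competent to start, measured 116.8, 141.6 and 145.7 CPM in WT and 96.1, 94.3 and 96.4 in MLST8-KO samples. The MLST8-KO values were close together and below even WT 1, the lowest WT sample, and *RRN3* fell by 0.49 ± 0.094 (edgeR adjusted p = 0.00564), passing in all 6 fits that left out a sample. *TAF1D*, a subunit of the promoter selectivity factor SL1, measured 15.3, 16.5 and 21.6 CPM and then 12.6, 13.1 and 13.8. Its groups did not overlap, WT 3 was highest, and it fell by 0.43 ± 0.14 (edgeR adjusted p = 0.0417), passing in 1 of those 6 fits, with a value of -0.27 without WT 3. *UBTF*, which binds ribosomal DNA and keeps it open, measured 118.6, 121.7 and 119.2 CPM and then 113.2, 107.8 and 125.8. Its groups overlapped and it did not pass, with a log2 fold change of -0.052 ± 0.081 (edgeR adjusted p = 0.647) that was positive under upper quartile and TPM scaling.

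Of 3 core proteins of the box C/D snoRNP in the list, a particle that methylates ribosomal RNA, 1 rose, 1 fell and 1 did not pass. *NOP56* (Entrez 10528, chr20:2652145-2658393), a scaffold protein, measured 134.8, 125.2 and 112.4 CPM in WT and 174.8, 151.7 and 171.9 in MLST8-KO samples. The groups were apart, and *NOP56* rose by 0.42 ± 0.093 (edgeR adjusted p = 0.00938). Its paralogue *NOP58* (Entrez 51602, chr2:202265716-202303666), which pairs with NOP56 in the particle, measured 94.4, 105.1 and 128.6 CPM and then 70.4, 69.4 and 71.4. All MLST8-KO values lay within a narrow band below WT, and *NOP58* fell by 0.64 ± 0.11 (edgeR adjusted p = 0.00416), the largest change among the 40 genes. Both passed in all 6 fits that left out a sample. *FBL*, the methyltransferase fibrillarin, measured 191.3, 193.8 and 212.2 CPM and then 180.1, 171.0 and 198.7, which overlapped, and it did not pass (-0.12 ± 0.084, edgeR adjusted p = 0.294). *SNU13*, the remaining core protein and not among the 40 genes, fell by 0.42 ± 0.088 (edgeR adjusted p = 0.00786). Annotated exons of *NOP56* and *NOP58* overlap snoRNA genes on the same strand, as do those of *TAF1D*, *DKC1* and *GNL3*. Reads there could have been counted for either gene.

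Box H/ACA snoRNPs convert uridine to pseudouridine, and 2 of their 4 proteins fell. *NOP10* measured 90.3, 102.4 and 89.9 CPM in WT and 79.2, 76.0 and 79.9 in MLST8-KO samples. *GAR1*, which helps the enzyme act on its RNA substrate, measured 16.8, 21.8 and 21.5 CPM and then 15.6, 11.7 and 16.5. The groups were apart for both, narrowly so for *GAR1*, where MLST8-KO 2 was lowest. *NOP10* fell by 0.27 ± 0.082 (edgeR adjusted p = 0.0333) and *GAR1* by 0.46 ± 0.16 (edgeR adjusted p = 0.0461), and they passed in 2 and 1 of the 6 fits that left out a sample. *DKC1*, the pseudouridine synthase dyskerin, measured 241.4, 247.9 and 216.9 CPM and then 223.7, 208.6 and 221.7, with overlap and a log2 fold change of -0.11 ± 0.080 (edgeR adjusted p = 0.304). *NHP2* was at 0.031 and did not pass, and 27.4% of its exon bases lie opposite *RMND5B*, so reads of the pair cannot be told apart if strand was not used in counting.

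The 4 nucleolar phosphoproteins and chaperones in the list had every MLST8-KO sample below every WT sample, and 2 passed the test. Of all genes, 24.2% showed that pattern and 15.7% fell. *NPM1* (Entrez 4869, chr5:171387116-171411137), the histone and ribosome chaperone nucleophosmin, measured 1018, 1165 and 1148 CPM in WT and 950.7, 847.2 and 914.7 in MLST8-KO samples. It had the highest level per length of the 40 genes, at 1556 ± 100.3 TPM in WT samples (SD, n = 3), and it fell by 0.30 ± 0.084 (edgeR adjusted p = 0.0240), passing in 2 of 6 fits that left out a sample. Its counts were not all whole numbers, so reads may be shared with near-identical copies. The same holds for *NOP14*, *PNO1*, *NOP16*, *MRTO4* and *DDX21*, and counts of *PNO1*, *NOP16* and *MRTO4* were whole in no sample. *NOLC1*, a chaperone of snoRNPs, measured 158.8, 173.2 and 187.2 CPM and then 139.8, 136.3 and 138.9, and fell by 0.32 ± 0.081 (edgeR adjusted p = 0.0153). *NCL*, nucleolin, measured 596.0, 592.0 and 581.2 CPM and then 571.9, 507.5 and 577.4. The gap between its groups was small and it did not pass (-0.095 ± 0.078, edgeR adjusted p = 0.368). *NPM3*, a relative of nucleophosmin, was at -0.28 (edgeR adjusted p = 0.0979).

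Of 12 small-subunit factors, 7 fell and the other 5 did not pass, where 15.7% of all genes fell. The median log2 fold change of the 12 was -0.30. *UTP15* and *WDR43*, members of the complex that first joins the precursor, measured 53.5, 58.9 and 61.1 CPM and then 37.7, 45.8 and 39.5, and 201.0, 216.3 and 210.4 CPM and then 157.0, 161.2 and 166.2, in that order. In both genes each MLST8-KO sample was below each WT sample. *UTP15* fell by 0.50 ± 0.098 (edgeR adjusted p = 0.00633) and *WDR43* by 0.37 ± 0.073 (edgeR adjusted p = 0.00602). *WDR75*, of the same complex, had every MLST8-KO sample above WT, at 61.5 ± 1.43 against 56.3 ± 3.52 CPM (SD, n = 3), and did not pass (0.13, edgeR adjusted p = 0.240).

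The other 5 small-subunit genes that fell are described next. *PNO1* (Entrez 56902, chr2:68157844-68176238), which binds beside the end of the 18S RNA precursor, measured 100.6, 102.6 and 110.0 CPM in WT and 73.8, 70.9 and 78.1 in MLST8-KO samples. Its partner *NOB1*, the nuclease that makes the final cut of 18S RNA, measured 138.4, 137.5 and 155.8 CPM and then 118.4, 106.1 and 122.4. The MLST8-KO samples were below WT in both, and *PNO1* fell by 0.49 ± 0.080 (edgeR adjusted p = 0.00367) and *NOB1* by 0.32 ± 0.088 (edgeR adjusted p = 0.0220). *LTV1*, an export and maturation factor, measured 71.7, 79.2 and 77.0 CPM and then 56.2, 54.7 and 57.2. *RRP12*, also needed for export, measured 116.1, 119.1 and 144.7 CPM and then 87.0, 90.2 and 97.8. *LTV1* fell by 0.44 ± 0.078 (edgeR adjusted p = 0.00469) and *RRP12* by 0.47 ± 0.10 (edgeR adjusted p = 0.00845), with no overlap between groups. *BYSL*, bystin, measured 35.4, 36.3 and 37.4 CPM and then 29.03, 27.7 and 32.6, again apart, and fell by 0.29 ± 0.093 (edgeR adjusted p = 0.0387), passing in 2 of 6 fits that left out a sample. *UTP20*, *RRP9*, *NOP14* and *DDX10* had log2 fold changes of -0.095, -0.051, -0.12 and -0.13 and did not pass. *PNO1*, *NOB1* and *NOP14* share 10.4%, 20.2% and 17.1% of their exon bases with an opposite-strand gene, and *LTV1* 27.7% with a same-strand gene.

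**Figure D3:**
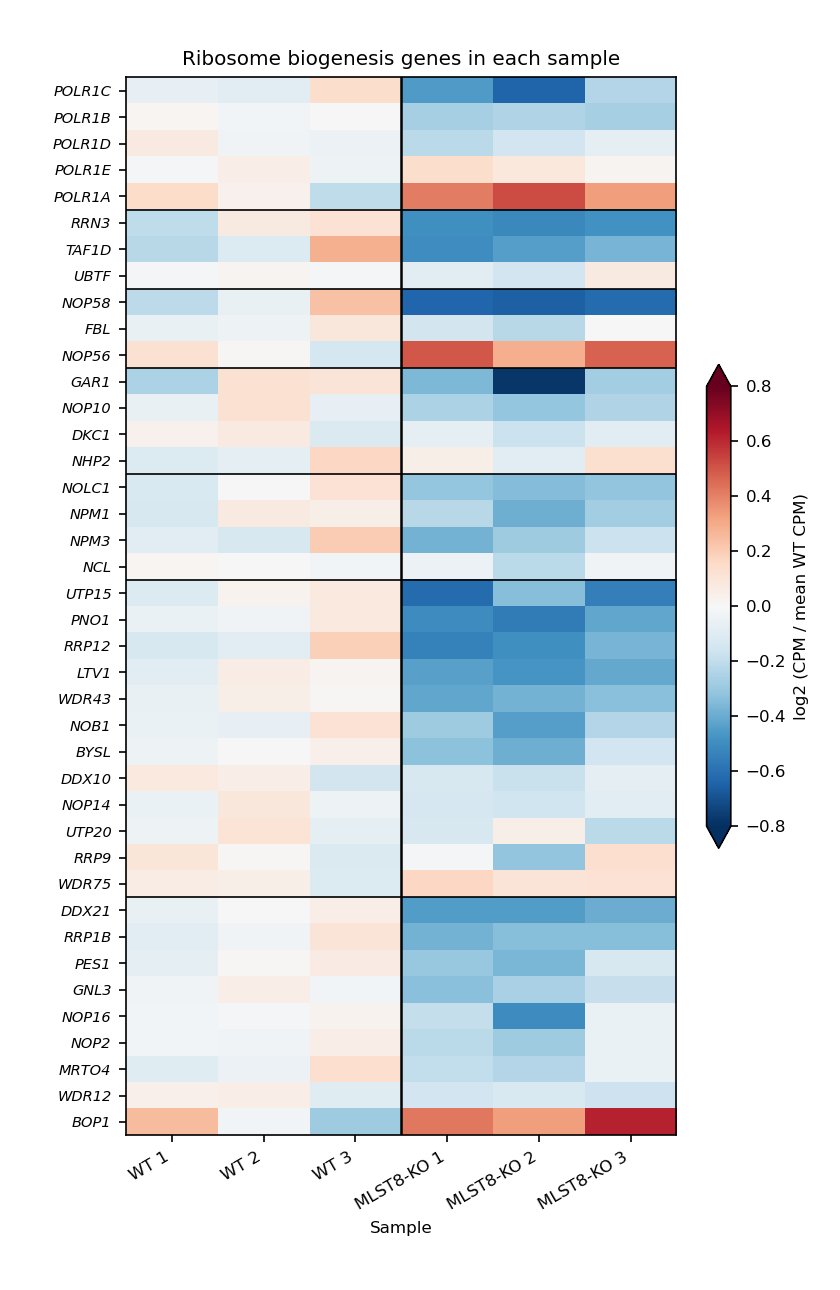
Each row is 1 of the 40 genes and each column a sample; the colour is the log2 ratio of its CPM to the mean of the 3 WT samples, blue for lower and red for higher, with lines between role groups. Columns MLST8-KO 1 to 3 are blue in most rows, and *POLR1A*, *NOP56* and *BOP1* are red.

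Of 9 large-subunit factors, 1 rose, 4 fell and 4 did not pass, where 16.3% of all genes rose and 15.7% fell. *BOP1*, *PES1* and *WDR12* form the PeBoW complex, which is needed to process the precursor of 28S and 5.8S RNA. *BOP1* (Entrez 23246, chr8:144262102-144291370) measured 74.8, 61.8 and 51.4 CPM in WT and 83.8, 78.9 and 96.1 in MLST8-KO samples. WT 1 was close to MLST8-KO 2, the groups did not overlap, and *BOP1* rose by 0.46 ± 0.13 (edgeR adjusted p = 0.0241), passing in 3 of 6 fits that left out a sample. *PES1* measured 127.2, 135.7 and 140.8 CPM and then 109.2, 104.6 and 122.9, apart by a small gap at MLST8-KO 3. It fell by 0.26 ± 0.086 (edgeR adjusted p = 0.0412), passing in 2 of those fits, and *WDR12* did not pass (-0.15, edgeR adjusted p = 0.208).

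*DDX21* (Entrez 9188, chr10:68956128-68985073), an RNA helicase that acts in ribosomal RNA transcription and processing, measured 390.9, 407.4 and 423.2 CPM in WT and 299.0, 298.5 and 308.7 in MLST8-KO samples. The distance between groups was several times the spread within them, and *DDX21* fell by 0.43 ± 0.072 (edgeR adjusted p = 0.00391). *RRP1B*, a nucleolar processing factor, measured 72.6, 75.4 and 82.5 CPM and then 59.2, 60.6 and 60.8, and *GNL3*, the GTP-binding protein nucleostemin, measured 150.3, 159.1 and 151.1 CPM and then 121.5, 128.1 and 135.2. Neither overlapped between groups, and they fell by 0.35 ± 0.080 (edgeR adjusted p = 0.0105) and 0.26 ± 0.076 (edgeR adjusted p = 0.0276). *NOP2*, a ribosomal RNA methyltransferase, *NOP16* and *MRTO4* had log2 fold changes of -0.18, -0.24 and -0.16 and did not pass. *NOP2* shares 54.4% of its exon bases with a same-strand gene model.

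WT 1 was the WT sample nearest to the MLST8-KO mean in 19 of the 23 called genes, and in 76.0% of all 4146 called genes. Leaving out each sample in turn kept the sign of all 23. *NOP56* among those that rose and *DDX21*, *WDR43*, *RRP12*, *NOP58*, *RRN3*, *PNO1*, *UTP15* and *LTV1* among those that fell passed in all 6 such fits, while 7 that fell passed in fewer than 3. *POLR1C*, *NOLC1*, *NOB1*, *GNL3* and *BOP1* passed in 3, and *POLR1A* and *RRP1B* in 5.

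**Figure D4:**
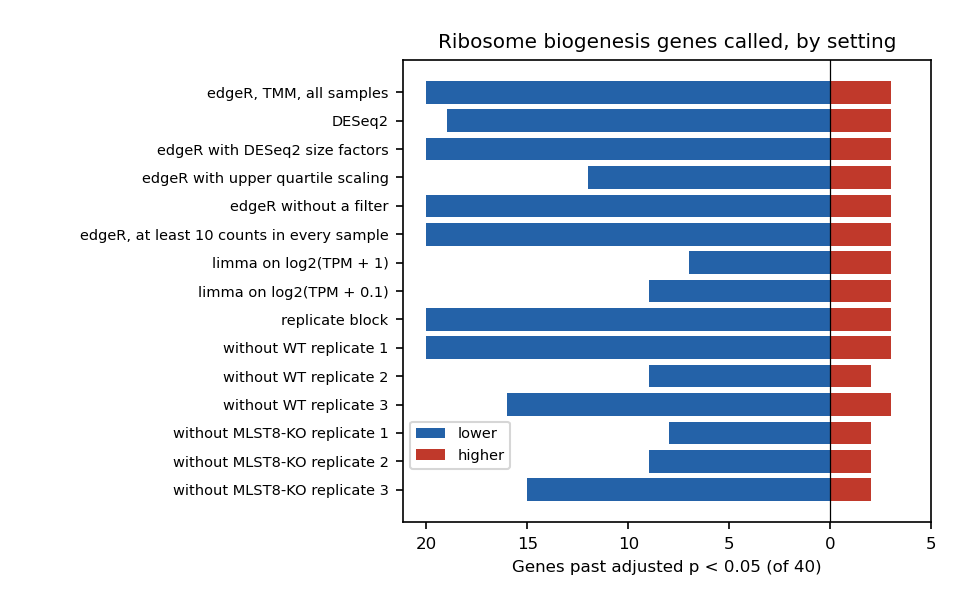
Bars give the number of the 40 genes that passed an adjusted p under 0.05 under each setting, lower to the left and higher to the right. The number that fell ranged from 7 to 20 and the number that rose from 2 to 3.

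Since partners in 1 particle moved apart, the ratio of their TPM values was taken in each sample for 10 pairs, chosen after the values were seen, so that no scaling between samples enters. *NOP56* to *NOP58* was 1.45, 1.21 and 0.887 in WT and 2.52, 2.22 and 2.44 in MLST8-KO samples. *NOP58* was the higher of the pair in WT 3 alone, and the mean ratio was 1.18 ± 0.282 in WT and 2.40 ± 0.158 in MLST8-KO samples (SD, n = 3). *POLR1A* to *POLR1B* was 0.253 ± 0.0293 and 0.405 ± 0.0222, and *BOP1* to *PES1* was 0.443 ± 0.106 and 0.725 ± 0.0130. In these 3 pairs every MLST8-KO sample lay above WT for the first gene and below WT for the second on the TPM scale. Separation of the ratios was therefore fixed by those values and adds no evidence to them. The two-sided exact permutation test gave p = 0.1 for each, the smallest that 3 against 3 samples allow. The ratios of *PES1* to *WDR12*, *GAR1* to *DKC1* and *NHP2* to *DKC1* overlapped between groups, with exact permutation p of 0.3, 0.2 and 0.4. The remaining 4 pairs, which set *NOP56* and *NOP58* against *FBL*, *BOP1* against *WDR12* and *NOP10* against *DKC1*, also gave 0.1.

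**Figure D5:**
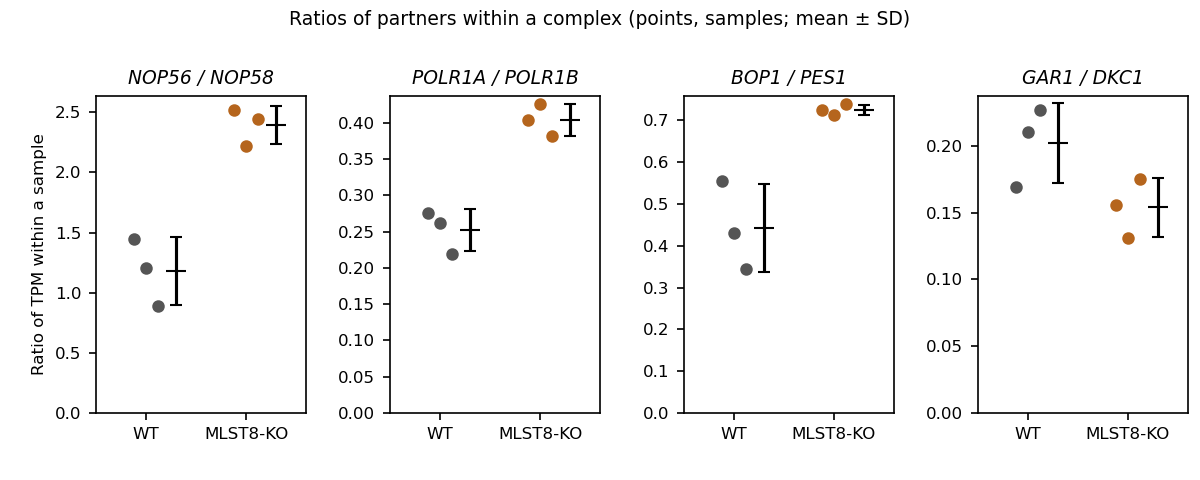
Points are the TPM ratio of 2 partner genes in each sample (y axis, from 0), with the mean and SD of the 3 samples per group beside them, for 4 of the 10 pairs. MLST8-KO points lie above WT points for *NOP56* to *NOP58*, *POLR1A* to *POLR1B* and *BOP1* to *PES1*, and the groups overlap for *GAR1* to *DKC1*.

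A further 112 genes of the pathway, listed by function, were all tested. This list too was chosen with earlier results of these data known. It was read in the same samples, so it is not an independent check. Of the 112 genes, 48 fell (42.9%), 3 rose and 61 did not pass, where 15.7% of all genes fell and 16.3% rose. The median of the 112 genes was -0.21 on the log2 scale. The number that fell was 29 with upper quartile scaling, 17 and 19 in the limma fits, and 22, 21 and 23 without WT 2, MLST8-KO 1 and MLST8-KO 2. Of 44 other small-subunit factors, 21 fell, led by *UTP6* (-0.73), *DCAF13* (-0.63) and *UTP3* (-0.53), all parts of the early precursor particle. *UTP6* rested in part on WT 3 (134.9 CPM, against 74.2 and 95.2 in WT 1 and WT 2), and without that sample its log2 fold change was -0.47. Of 47 other large-subunit factors, 19 fell, led by *ZNF622* (-0.62), a late maturation factor, the helicase *DDX18* (-0.54) and *MAK16* (-0.53), and 3 rose, *DDX54* (0.31), *LAS1L* (0.31) and *DDX27* (0.22). Of the 6 fits that left out a sample, *DDX27* passed in 0 and *DDX54* in 2. Of 7 other RNA polymerase I genes, 3 fell: the subunits *POLR1G* (-0.37) and *POLR1F* (-0.29) and the SL1 subunit *TAF1C* (-0.34). In the snoRNP assembly list, *ZNHIT3* (-0.43), *SNU13* (-0.42) and *NUFIP1* (-0.27) fell among 9 genes that include the core protein SNU13, and of 5 subunits shared between polymerases *POLR2H* (-0.27) and *POLR2K* (-0.25) fell. *NUFIP1* passed in 1 of the 6 fits that left out a sample, and *POLR1G*, *TAF1C*, *POLR2H* and *POLR2K* in 2 each.

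Of the other polymerases, where 15.7% of all genes fell, 1 of 11 subunits of RNA polymerase III fell (*POLR3E*, -0.37) and 3 of 7 of RNA polymerase II (*POLR2C*, -0.75, *POLR2D*, -0.31, and *POLR2I*, -0.30), with median log2 fold changes of -0.13 and -0.19, and the difference from RNA polymerase I was not tested. *MYC* measured 458.1, 422.0 and 425.0 CPM in WT and 353.1, 327.8 and 425.6 in MLST8-KO samples. MLST8-KO 3 reached the WT range, and *MYC* did not pass (-0.24 ± 0.10, edgeR adjusted p = 0.0918). Among the 6 fits that left out a sample it passed in 1, with values from -0.35 to -0.16. Proliferation genes moved the other way from the ribosome biogenesis genes: 19 of 20 rose, where 16.3% of all genes rose. Their median was 0.55, and *MCM5* (1.44), *PLK1* (0.98) and *MKI67* (0.93) had the largest changes. Their summed level was 905 ± 139.8 TPM in WT and 1414 ± 92.8 TPM in MLST8-KO samples (SD, n = 3). It fell across the WT samples, at 1038, 917 and 759.5 TPM in WT 1, 2 and 3. In culture, the study saw a modest drop in the viability of HCC2814 MLST8-KO cells. RNA levels do not measure growth, and how these levels relate to that drop was not tested. The part of *MYC* level and of proliferation in the changes of the 40 genes was not tested.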

How the data were processed

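RNA was sequenced by the submitters on the DNBSEQ platform. Per the labels and the methods, reads were filtered and aligned with HISAT and Bowtie2 to GRCh38.p12. The authors deposited estimated counts, TPM and FPKM per gene and sample. FPKM, averages over samples and a table of the authors' own comparisons (fold changes, p-values) were not used. Of the deposited estimated counts, 12.4% were not whole, and values were rounded, since the design had foreseen counts. Whether counting used strand is not given in the sources used here. Symbols that had become dates (25 genes) were restored through Entrez identifiers.

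Counts were scaled with TMM, filtered with filterByExpr and tested with edgeR 4.0.16 in R 4.3.3 (glmQLFit, glmQLFTest; MLST8-KO against WT, no covariate), with Benjamini-Hochberg adjustment over 12951 genes and a threshold of 0.05. SE is the absolute log2 fold change over the square root of F. Alternatives were DESeq2 1.42.0, other scalings and filters, limma 3.58.1 on log2(TPM + 1) and log2(TPM + 0.1), a replicate block, and fits without each sample in turn. The code was tested on simulated data. All replicate pairs differed by more than sampling noise.

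The 40 genes, their role groups and the other lists were chosen with earlier results of these data known. Values in every sample are given for called genes and for *POLR1A*, *POLR1B*, *UBTF*, *RRN3*, *NOP56*, *FBL*, *DKC1*, *NCL*, *NPM1* and *BOP1*. Up to 3 genes per direction, by size of change and with a mean of at least 50 counts, are named from other lists, and *MLST8* and *MYC* always. Of 16 snoRNA host RNAs listed, 0 matched the table by symbol. Gene coordinates are from GENCODE 29 (GRCh38), and promoter windows are from RefSeq, with those of chromosome 8 left out.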

Additional observations from a re-analysis of the deposited data

How the results depend on the processing

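*MLST8* was lower under all 14 alternatives. The number of the 40 genes that fell was 12 with upper quartile scaling, 7 with limma on log2(TPM + 1), 9 with limma on log2(TPM + 0.1), and 8 to 20 when 1 sample was left out. The number that rose was 2 to 3 throughout. Of the 112 other pathway genes, 29, 17 and 19 fell in the same 3 fits and 21 to 51 with 1 sample left out, lowest without MLST8-KO 1 (21), WT 2 (22) and MLST8-KO 2 (23). In those 3 fits 7, 7 and 8 rose, and 0 to 5 with 1 sample left out. That number was 5 without WT 1, 1 without WT 3 or MLST8-KO 3, and 0 without WT 2 or without MLST8-KO 1 by edgeR, where 6 and 3 had an unadjusted p under 0.05. The cause was not tested.

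Genes that did not pass and changed sign were *UBTF* (0.0028 with upper quartile scaling, 0.14 and 0.15 with the limma fits), *RRP9* (0.0027, 0.047 and 0.048, and -0.16 to 0.065 with 1 sample left out), *NCL* (0.011 with both limma fits), *UTP20* (0.012 with both) and *NHP2* (-0.021 to 0.12 with 1 sample left out). DESeq2's size factors, the absence of a filter and at least 10 counts in every sample changed no call among the 40 genes.

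Same-numbered samples had correlated deviations of 0.10, 0.057 and 0.14, so the numbers were not taken to pair the samples, although all 6 correlated best with their own number, a hint from the data and not the design. With the replicate block 20 of the 40 genes fell and 3 rose, and 51 of the other pathway genes fell and 3 rose, where 16.7% of all genes fell and 17.5% rose. Depth was similar in all libraries, and 3 samples per group limit what could be detected.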
